A study of Mus musculus with 10 samples.

Results

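The S100 genes described here were measured in Ly6G-enriched cells, labelled as neutrophils, of mice after myocardial infarction. The genes are S100a1, S100a4, S100a6, S100a8, S100a9, S100a10, S100a11 and S100a13. They were chosen by name, and all 8 were found by symbol and Ensembl identifier among the 28185 genes of the deposited tables. The libraries came from male C57Bl/6J mice of 12 to 16 weeks whose left coronary artery had been ligated, and every group carried this infarct, since no library of a mouse without ligation was analysed here. At day 3 after ligation, Ly6G+ cells, which the surface protein Ly6G marks as mouse neutrophils, were enriched with magnetic beads from the digested left ventricle below the ligature (MI, n = 3) or from blood (Blood, n = 2). The mice of the other groups had also received mesenchymal stromal cells (MSC) of syngeneic bone marrow under the skin at 3 sites shortly after ligation (MI + MSC, n = 3; Blood + MSC, n = 2). The study's methods take the single animal as the unit of its work in mice, but the labels tie no library to a mouse, so the p-values measure the spread between these libraries. The labels also give each group a batch value of its own, so batch and group cannot be told apart in any comparison.

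S100 proteins are small calcium-binding proteins with a pair of EF-hand motifs, and most of them work as dimers that bind a partner protein once calcium has opened a hydrophobic surface. S100A8 and S100A9 form calprotectin, the heterodimer that fills the cytosol of neutrophils, binds zinc and manganese, and acts on Toll-like receptor 4 and the receptor RAGE after release. S100A6 (calcyclin), S100A10 and S100A11 (calgizzarin) are found in many cell types and bind annexins and cytoskeletal proteins. S100A1 is the family member of cardiomyocytes, where it binds the ryanodine receptor and the calcium pump SERCA2a, and S100A13 takes part in the export of IL-1α and FGF1.

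All 8 genes lie on chromosome 3 of GRCm39, in a pair of clusters. The first cluster holds S100a13 (chr3:90416091-90431912, plus strand), S100a1 (chr3:90418340-90421848, minus strand), S100a4 (chr3:90511074-90513354, plus strand), S100a6 (chr3:90520140-90535843, plus strand), S100a8 (chr3:90567118-90578128, plus strand) and S100a9 (chr3:90599931-90603071, minus strand). The second holds S100a11 (chr3:93414382-93435293, plus strand) and S100a10 (chr3:93462213-93474510, plus strand). S100a8 and S100a9 are neighbours that are read from opposite strands.

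The sequences before the start sites of the 4 genes that differed most between heart and blood are given below, since S100a8 moved with S100a9, and S100a6 with S100a11, from library to library. They come from RefSeq, were placed on GRCm39 by an exact match that occurred once on the chromosome, and each ends just before the nearest annotated exon within the 250 bases before the RefSeq start. S100a8 and S100a11 have annotated transcripts that begin farther upstream, so their stretches lie inside the span of the gene given above. Capitals mark matches, on either strand, to a C/EBP core (TTNNGNAA), to an ETS core with its flank (GAGGAA) or to an AP-1 site (TGANTCA). The stretches are chr3:90576128-90576284 (plus strand) for S100a8, chr3:90603072-90603278 (minus strand) for S100a9, chr3:90519951-90520139 (plus strand) for S100a6 and chr3:93427553-93427676 (plus strand) for S100a11, each written 5′ to 3′ along its gene.
S100a8: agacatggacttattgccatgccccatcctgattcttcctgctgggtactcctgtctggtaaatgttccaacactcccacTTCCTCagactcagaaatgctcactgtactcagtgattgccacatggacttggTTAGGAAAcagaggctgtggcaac
S100a9: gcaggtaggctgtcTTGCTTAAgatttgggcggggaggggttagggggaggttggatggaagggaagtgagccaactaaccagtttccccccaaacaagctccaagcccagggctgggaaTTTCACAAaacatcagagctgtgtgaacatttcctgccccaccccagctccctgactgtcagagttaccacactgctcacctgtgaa
S100a6: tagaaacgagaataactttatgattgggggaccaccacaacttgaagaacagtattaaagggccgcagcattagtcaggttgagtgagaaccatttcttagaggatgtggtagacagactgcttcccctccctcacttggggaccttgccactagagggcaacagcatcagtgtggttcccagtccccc
S100a11: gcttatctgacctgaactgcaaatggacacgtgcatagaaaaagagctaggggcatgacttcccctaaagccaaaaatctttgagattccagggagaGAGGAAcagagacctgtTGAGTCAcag
Over the whole 250 bases before the RefSeq start, S100a9 held 2 matches to the C/EBP core and S100a8 held 1, while 36.8% of all 32851 RefSeq promoters of this length held at least 1. GAGGAA was found in S100a8 and S100a11 and in 23.3% of all promoters. The AP-1 letters occurred at 2 places before S100a11 and in 6.75% of all promoters. A TATA box (TATAAA) began 30 bases before the RefSeq start of S100a8 and 31 bases before that of S100a4, and 12.4% of all promoters held one. No letters of these motifs were found before S100a6, S100a1 or S100a13, and S100a10 had no entry. A match is a run of letters and does not show that a factor binds there.

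The values are reads per gene divided by the size factor of the library, called normalized counts here. The reads behind them were recovered, because 100% of the values came out whole when divided by what 1 read is worth. Libraries held between 148594 (MI 13) and 8602711 (Blood + MSC 24) reads on genes, and MI 13 and Blood 21 (268860 reads) were the shallowest, so that 1 read is worth 8.40 and 7.07 normalized counts in them. A gene was taken as detected above 3 reads. By this count, 7 members were detected in each library except MI 13, with 6, and Blood + MSC 24, with 8.

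The labelled cell type was checked against marker genes. Ly6g itself was listed at 4.75 to 26.9 normalized counts (2 to 35 reads) in the 6 cardiac libraries and at 41.2 to 645 (28 to 992 reads) in the 4 blood libraries. The sum over 14 neutrophil markers, with no S100 gene among them, ran from 1387 to 7074 in the heart and from 15418 to 41462 in blood. Sums over 12 cardiomyocyte markers ran from 3969 to 27875 in the heart and from 184 to 228 in blood, and Myh6, the heavy chain of cardiac myosin, was at 402 to 3901 in the heart and at 0 to 2.36 in blood. Endothelial markers (10 genes) summed to 656 to 2894 against 51.5 to 756, mural cell markers (10 genes) to 465 to 2009 against 70.8 to 120, and fibroblast markers (10 genes) to 2413 to 4794 against 1699 to 6950. Macrophage markers (12 genes) lay at 3437 to 12719 in the heart and 5974 to 8380 in blood. T cell markers (8 genes) stayed between 7.35 and 160 in all libraries, and B cell markers (6 genes) between 84.0 and 809. Erythroid markers (7 genes) ran from 52.0 to 311 in the heart and from 488 to 9559 in blood. Platelet markers (11 of 12 genes in the tables) summed to 30713 in Blood 21, while the remaining 9 libraries had 521 to 1780. In the MI libraries, the cardiomyocyte sum (9553 to 27875) was above the neutrophil sum (1387 to 4073), so their RNA was not from neutrophils alone. The same held for MI + MSC 18 (14839 against 1713). In MI + MSC 15 and 17 the cardiomyocyte sum was the lower one (3969 against 5273, and 5760 against 7074). The macrophage sum was above the neutrophil sum in every cardiac library except MI + MSC 17 (6125 against 7074). In bulk RNA, fewer cells of a type and less RNA per cell cannot be told apart, and this holds for each S100 gene.

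S100a8 and S100a9, the subunits of calprotectin, were the members with the most reads in every library. The normalized counts of S100a9 were 807, 2776 and 1748 for MI 13, 19 and 20, and 2096, 4257 and 774 for MI + MSC 15, 17 and 18. They were 16229 and 10655 for Blood 21 and 22, and 4124 and 2730 for Blood + MSC 23 and 24. Both Blood libraries stood above the other 8, while MI + MSC 17 was above the Blood + MSC libraries. In the same order of libraries, S100a8 had 605, 1948 and 1137 across MI, then 1480, 3122 and 616 across MI + MSC. The Blood libraries had 12061 and 7659, and those of Blood + MSC 3320 and 2073. The order of the libraries was nearly that of S100a9, and S100a9 spanned 20.98-fold and S100a8 19.9-fold from the lowest to the highest library.

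The ratio of S100a8 to S100a9 stayed between 0.650 (MI 20) and 0.805 (Blood + MSC 23) in all 10 libraries, with a mean of 0.736 ± 0.0459 (SD, n = 10). It was 0.701 ± 0.0499 (SD, n = 3) in MI, 0.745 ± 0.0465 (SD, n = 3) in MI + MSC, 0.731 ± 0.0172 (SD, n = 2) in Blood and 0.782 ± 0.0322 (SD, n = 2) in Blood + MSC. On the log2 scale the cardiac libraries lay 0.07 below the blood libraries (-0.47 ± 0.10 against -0.40 ± 0.07, SD, n = 6 and 4), which is less than the spread between libraries (two-sided exact permutation test, p = 0.267, with 0.0095 the smallest p possible). The pair of genes was thus present in nearly the same proportion at every level. A ratio close to a constant shows nothing of the amount of either gene.

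**Figure D1:**
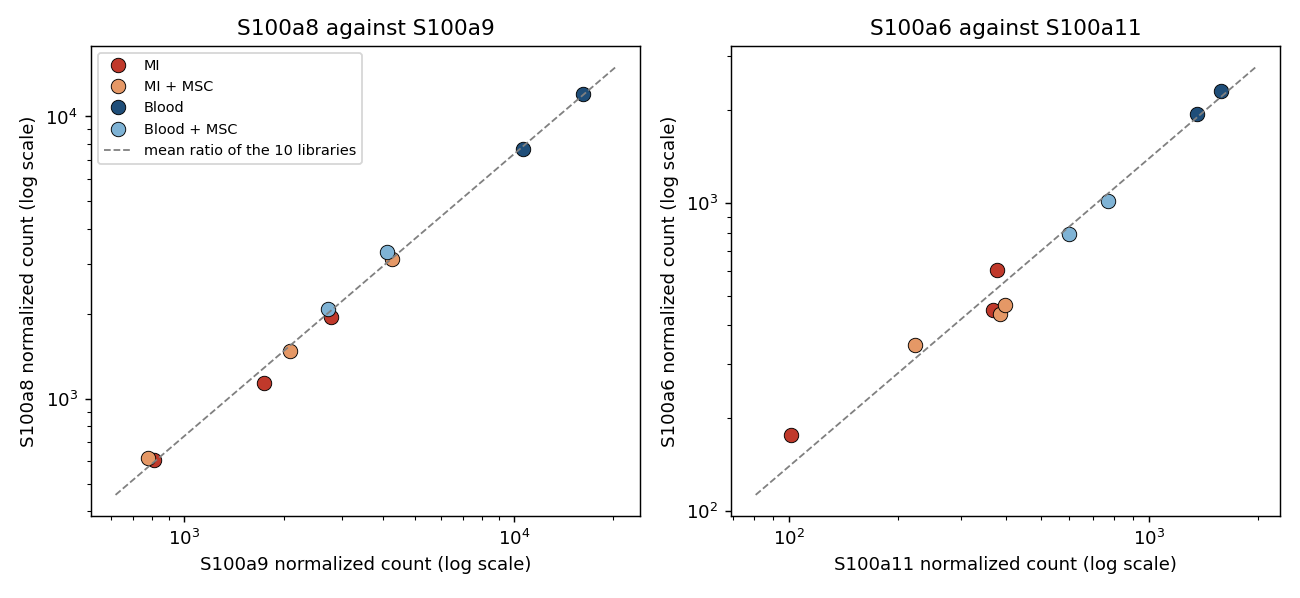
Each point is 1 library. The left panel plots the normalized count of S100a8 against that of S100a9, and the right panel S100a6 against S100a11, all on log axes, with colours for the 4 groups and a dashed line at the mean ratio of the 10 libraries (0.736 and 1.396). The points follow the lines over the whole range, more tightly for S100a8 and S100a9.

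S100a6, which binds annexins and the protein CacyBP, was at 176, 604 and 450 normalized counts across MI, with 435, 466 and 344 across MI + MSC. The values were 1950 and 2312 for Blood, with 1013 and 790 for Blood + MSC. All blood libraries lay above all cardiac libraries, and both Blood libraries above both Blood + MSC libraries. S100a11, a partner of annexin A1, was at 100.9, 377 and 368 across MI, with 384, 397 and 224 across MI + MSC. Blood libraries had 1357 and 1579, those of Blood + MSC 769 and 597. The groups stood in the same order as for S100a6. The ratio of S100a6 to S100a11 ran from 1.13 (MI + MSC 15) to 1.75 (MI 13, with 21 and 12 reads), with a mean of 1.396 ± 0.199 (SD, n = 10).

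S100a10, which forms a tetramer with annexin A2, had a different pattern. Its normalized counts were 303, 588 and 574 across MI, 502, 289 and 524 across MI + MSC, and 324 and 349 across Blood + MSC. Blood 21 had 2268 and Blood 22 had 488, so the high mean of the Blood group (1378 ± 1259, SD, n = 2) came from 1 library. Blood 21 is also the library with the sum of 30713 over the platelet markers, against 1259 in Blood 22, and the part of platelet RNA in the S100a10 value was not tested. Without Blood 21, the highest library for S100a10 was a cardiac one, MI 19.

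S100a1, the cardiomyocyte member, was low. Its normalized counts were 42.0, 46.1 and 22.1 across MI (5 to 48 reads), 15.5, 13.8 and 31.2 in MI + MSC (6 to 46 reads), 19.4 and 26.4 across Blood + MSC, and 14.3 in Blood 22. Blood 21 again stood apart with 155 normalized counts, from 22 reads. S100a13 was at 25.2, 33.6 and 21.6 across MI, with 15.5, 29.8 and 18.98 across MI + MSC. Blood libraries had 28.3 and 44.2, those of Blood + MSC 46.0 and 55.4, the highest values of its range, which was the narrowest of the tested members (3.56-fold). In the shallow libraries it rested on 3 reads (MI 13) and 4 reads (Blood 21). S100a1 and S100a13 share 2563 exon bases on opposite strands, and the authors counted reads by strand.

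S100a4, known as a marker of fibroblasts and of some leukocytes, was at or near 0 in every library, with 0 to 2 reads in the cardiac libraries, 0 and 3 reads in Blood 21 and 22, and 3 and 5 reads in Blood + MSC 23 and 24. Its highest value was 1.95 normalized counts, and it fell under the filter of a mean of 10 normalized counts, so 7 of the 8 members were tested. Of the 503 bases of its canonical transcript, 302 (60.0%) also belong to exons of the gene model Gm42674 on the same strand, which was not analysed here. Reads on shared bases can be left out when reads are counted per gene, so the level of S100a4 is uncertain, and no difference between groups was read from it.

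**Figure D2:**
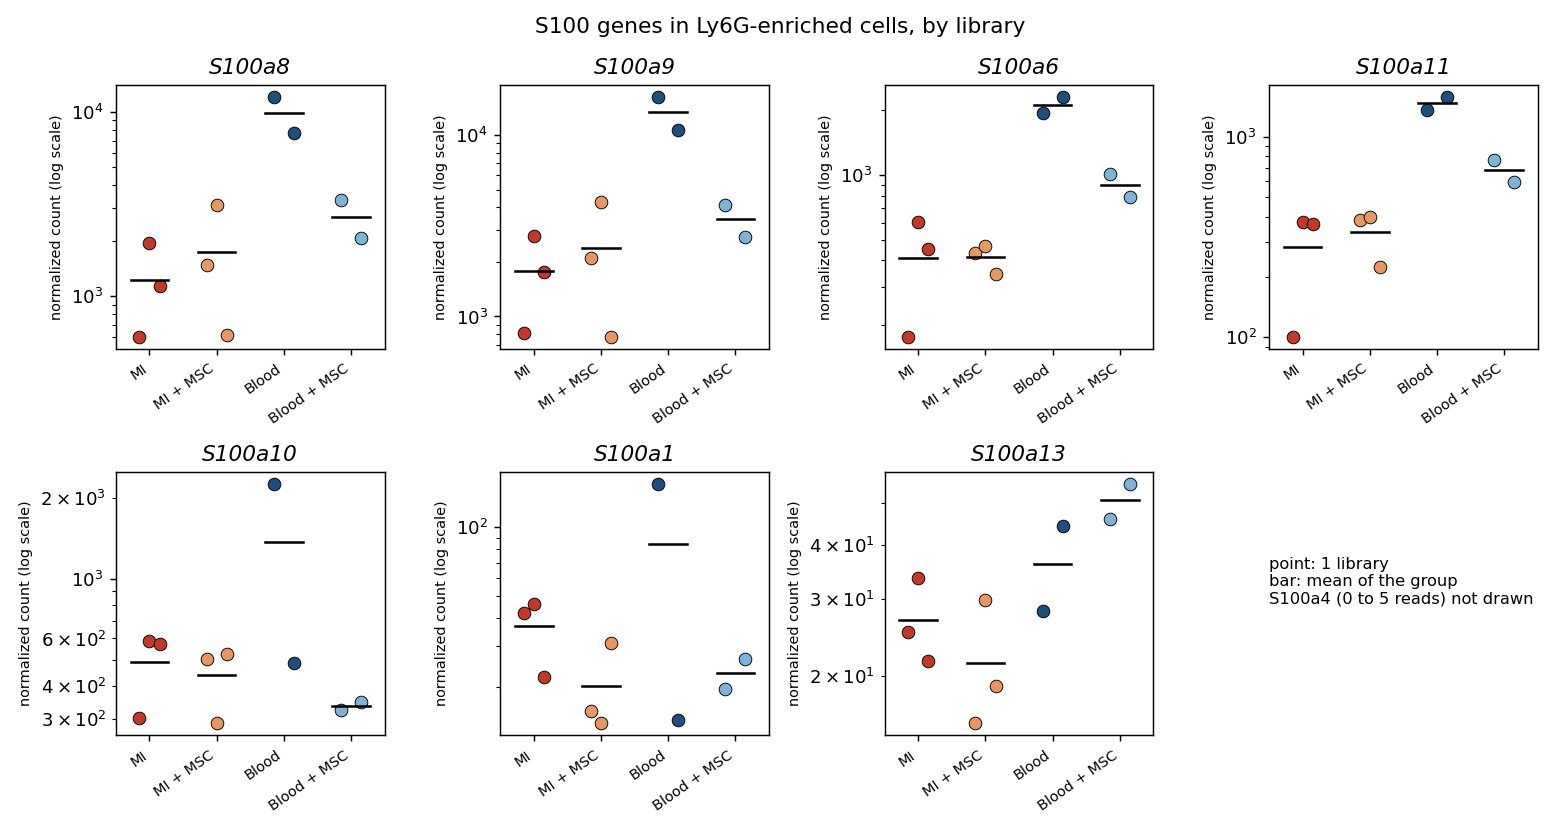
Normalized counts (log scale) of the 7 tested members in the 4 groups, with 1 point for each library and a bar at the mean of the group. For S100a8, S100a9, S100a6 and S100a11, both Blood libraries lie above every other library, while the high points of S100a10 and S100a1 in Blood are each the 1 library Blood 21.

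Levels were compared between genes per kilobase, as normalized counts divided by the median length of the coding transcripts of the gene. On this scale S100a9 had 23750 ± 6963 per kilobase in Blood (SD, n = 2) and S100a8 20308 ± 6411, followed by S100a6 with 2759 ± 332, S100a11 with 664 ± 71.1 and S100a10 with 403 ± 368. S100a1 and S100a13 were at 104 ± 122 and 44.2 ± 13.7, and S100a4 was last with 1.94 ± 2.74. The SDs are spreads between libraries. Since all genes were measured in the same libraries, the SDs do not tell whether 1 gene differed from another, and this was not tested. In MI, the levels per kilobase were 3140 ± 1740 for S100a9, 2534 ± 1393 for S100a8, 531 ± 280 for S100a6, 143 ± 47.1 for S100a10 and 128 ± 71.0 for S100a11 (SD, n = 3). S100a9, S100a8 and S100a6 held places 1, 2 and 3 in all 4 groups. The order of S100a8 and S100a9 depends on the transcript length used, since with the longest coding transcripts S100a8 (4220) came before S100a9 (3943) in Blood + MSC. In MI, S100a11 came before S100a10 with the longest coding transcripts (121 and 97.3) and with the shortest (614 and 573).

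As a share of all reads on genes, the 8 members took 1.79% of Blood 21 (95% Wilson interval 1.74 to 1.84%) and 1.18% of Blood 22 (1.17 to 1.20%). They took 0.577% (0.572 to 0.583%) of Blood + MSC 23 and 0.457% (0.453 to 0.462%) of Blood + MSC 24. In the heart, the share ran from 0.165% in MI 13 (0.145 to 0.187%) to 0.561% in MI + MSC 17 (0.543 to 0.579%). S100a9 was the gene of rank 4 and 3 by reads in Blood 21 and 22, of rank 20 and 19 in Blood + MSC, and of rank 17 to 183 in the heart. S100a8 and S100a9 made up 54.9% of the reads of the members in MI + MSC 18 (53.3 to 56.4%) and 86.1% in MI + MSC 17 (84.9 to 87.1%), the lowest and the highest share. The intervals cover counting error only.

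Ly6G-enriched cells from the heart and from blood of mice without MSC were compared first. S100a6, S100a8, S100a9 and S100a11 were lower in MI than in Blood, and no member was higher. The test was limma on log2(normalized count + 2), run on 11549 genes whose mean reached 10 normalized counts, and a gene was called when its Benjamini-Hochberg adjusted p was below 0.05 and its log2 fold change was 0.5 or more in size. Fold changes on this scale understate the change of low genes. Among the 7 tested members, 4 were called lower, while 13.5% of all tested genes were called lower, and the groups did not overlap for 4 members, with MI below Blood, as for 23.6% of all tested genes. Over all tested genes, 2452 were called higher and 1556 lower in MI, against 3777 and 813 under library-size scaling, and under either scaling the same 4 members were called lower. The median log2 fold change was -2.54 over the 7 members and 0.15 over all tested genes.
S100a8 averaged 1230 ± 676 normalized counts in MI (SD, n = 3) and 9860 ± 3113 in Blood (SD, n = 2), a log2 fold change of -3.12 (SE 0.70, limma adjusted p = 0.0071). S100a9 averaged 1777 ± 985 and 13442 ± 3941, a log2 fold change of -3.06 (SE 0.75, limma adjusted p = 0.011). For S100a6 the means were 410 ± 216 and 2131 ± 256, with a log2 fold change of -2.54 (SE 0.46, limma adjusted p = 0.0025). For S100a11 they were 282 ± 157 and 1468 ± 157, with a log2 fold change of -2.59 (SE 0.52, limma adjusted p = 0.0042). The 4 genes were thus lower by 5.81-fold (S100a6) to 8.70-fold (S100a8) on the fitted scale.
S100a10 had a log2 fold change of -1.17 (SE 0.57, limma adjusted p = 0.13), which was -0.06 when Blood 21 was left out. S100a1 (-0.45, SE 0.77) and S100a13 (-0.40, SE 0.39) were not called, and their sign turned under scaling to the library size (0.04 and 0.09). Without Blood 21, S100a9 missed the threshold (log2 fold change -2.76, limma adjusted p = 0.057) and S100a1 turned to 1.19, and without Blood 22, 6 members were called lower, with 9.78% of all genes tested then called lower. The called genes moved with the neutrophil markers, of which 12 of 14 were lower in MI, with a median log2 fold change of -3.25, and against the cardiomyocyte markers, of which 12 of 12 were higher. The part of cell composition in the S100 differences was not tested.

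**Figure D3:**
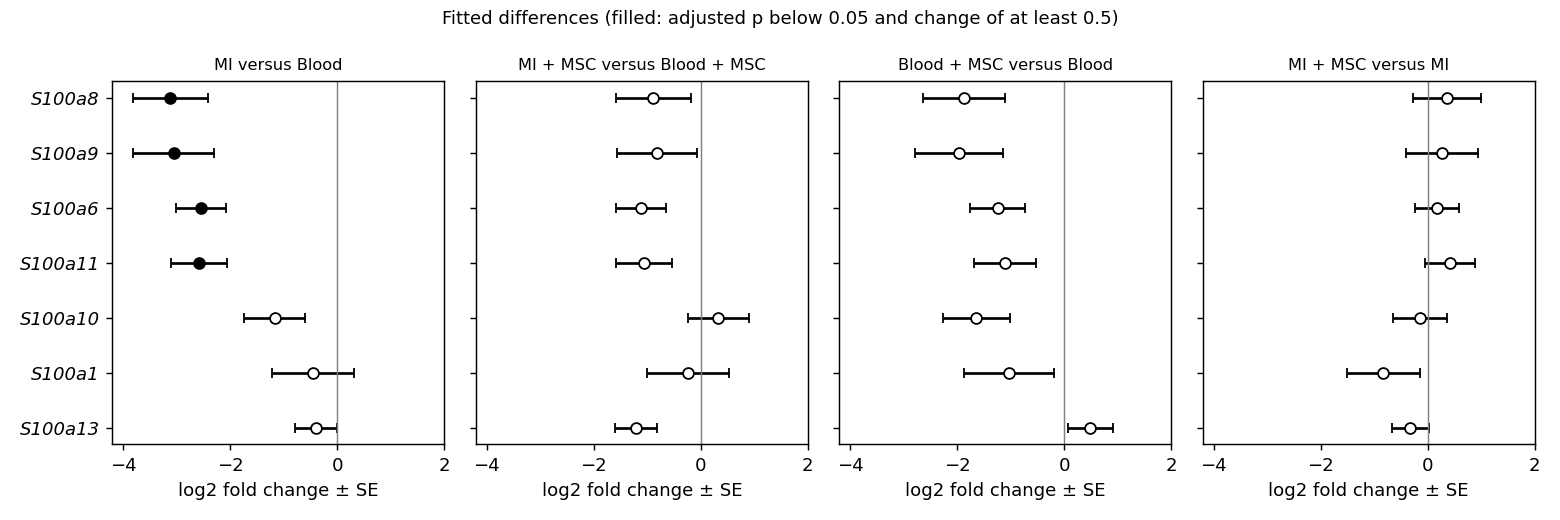
Fitted log2 fold changes of the 7 tested members in 4 comparisons, with bars of 1 standard error. Filled points passed both thresholds, as S100a8, S100a9, S100a6 and S100a11 did in MI versus Blood, where they lie between -3.12 and -2.54.

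Among mice with MSC, the fitted differences between heart and blood were closer to 0 for these 4 genes, although the interaction that tests this did not pass (limma adjusted p = 0.63). With limma, 0 of the 7 members were called between MI + MSC and Blood + MSC, where 14.1% of all tested genes were called in either direction, and 2 members had an unadjusted p below 0.05. The genes called were 951 higher and 676 lower in MI + MSC, and 501 and 809 under TMM scaling. The log2 fold change was -0.89 (SE 0.70) for S100a8, -0.82 (SE 0.75) for S100a9, -1.12 (SE 0.46) for S100a6 and -1.06 (SE 0.52) for S100a11, with limma adjusted p between 0.128 and 0.488. S100a13 had the lowest adjusted p, with 21.5 ± 7.46 normalized counts in MI + MSC (SD, n = 3) and 50.7 ± 6.64 in Blood + MSC (SD, n = 2), a log2 fold change of -1.21 (SE 0.39, limma adjusted p = 0.059). S100a10 was at 0.33 (SE 0.57), and at -0.28 under TMM scaling, and S100a1 at -0.24 (SE 0.77). The groups did not overlap for S100a6, S100a11 and S100a13, with MI + MSC below Blood + MSC, as for 29.7% of all tested genes. Of the neutrophil markers, 6 of 14 were called lower in MI + MSC and 0 higher, with a median log2 fold change of -2.58.
More members were called by models of the read counts. S100a13 was called lower by edgeR (adjusted p = 0.0058 with TMM and 0.0089 with the deposited size factors) and by limma-voom with sample weights (adjusted p = 0.0019). Of all 11549 tested genes, these fits called 1801, 1549 and 2355 lower, in the same order. DESeq2 fitted to all libraries called 2 members lower (S100a6 and S100a13), with 1296 of all 11549 tested genes called lower. Fitted to these groups alone, it called 3 lower (S100a6, S100a11 and S100a13), with 18.9% of all genes called lower. Without MI 13, limma called these 3 lower too, with 1159 of 10951 genes tested then called lower.

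In blood, the comparison of Blood + MSC with Blood addressed the systemic response to cells placed under the skin. With limma, 0 of the 7 members and 0% of all tested genes were called, while 4 members and 848 genes had an unadjusted p below 0.05. For 5 members, namely S100a8, S100a9, S100a6, S100a11 and S100a10, both Blood + MSC libraries were below both Blood libraries, as for 15.4% of all tested genes. For S100a13 both were above, as for 21% of all tested genes. The median log2 fold change was -1.25 over the members and 0.11 over all tested genes.
S100a8 averaged 2696 ± 881 normalized counts in Blood + MSC and 9860 ± 3113 in Blood (SD, n = 2 each), with a log2 fold change of -1.87 (SE 0.77, limma adjusted p = 0.672). S100a9 had -1.97 (SE 0.82), S100a10 -1.64 (SE 0.62), S100a6 -1.25 (SE 0.51) and S100a11 -1.11 (SE 0.57), with limma adjusted p of 0.672 to 0.683. S100a1 had -1.04 (SE 0.84), and S100a13 had 0.49 (SE 0.43). S100a8 and S100a9 kept a log2 fold change between -2.27 and -1.53 with each library left out in turn. Under TMM scaling, which moved the median of all tested genes by 0.61, the log2 fold change was -1.20 for S100a8, -1.30 for S100a9, -0.58 for S100a6 and -0.44 for S100a11. Without Blood 22, limma called S100a1 and S100a10 lower, with 3.38% of all genes tested then called lower.
DESeq2 fitted to the blood libraries alone called S100a8 (-1.93, adjusted p = 0.049) and S100a9 (-2.03, adjusted p = 0.026), where it called 0.329% of all genes lower. Fitted to all libraries, it called S100a10 alone (adjusted p = 0.031), with 175 of all 11549 tested genes called lower. The log2 fold change of S100a10 without Blood 21 was -0.53 in limma. edgeR and limma-voom called 0 members and 0 of all 11549 tested genes. The sum of the neutrophil markers was 21295 and 41462 for the Blood libraries, with 20693 and 15418 for Blood + MSC. S100a9, at 16229 and 10655 for Blood, was thus higher in the Blood library with the lower sum. The part of other cells and of depth in these differences was not tested.

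In the infarcted heart, no member was called between MI + MSC and MI. With limma, 0 of the 7 members and 0% of all tested genes were called, and 0 members but 925 genes had an unadjusted p below 0.05. edgeR, DESeq2 and limma-voom also called 0 members. Of all 11549 tested genes, edgeR called 0, and limma-voom called 39 higher and 222 lower. DESeq2 called 21 higher and 58 lower when fitted to all libraries, and 53 and 95 when fitted to these groups alone. No member had groups without overlap, in either direction, against 16.7% of all tested genes. S100a8 had a log2 fold change of 0.36 (SE 0.63), S100a9 of 0.27 (SE 0.67), S100a6 of 0.18 (SE 0.42) and S100a11 of 0.42 (SE 0.47), and each of them turned negative when MI 13 was left out (-0.07, -0.21, -0.34 and -0.20). S100a10 was at -0.14 (SE 0.51), S100a1 at -0.83 (SE 0.68) and S100a13 at -0.32 (SE 0.35). Beside these values, the cardiomyocyte markers summed to 9553 to 27875 in MI and 3969 to 14839 in MI + MSC.

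Whether the response to MSC differed between heart and blood was tested as an interaction, which needs the adjusted p alone. With limma, 0 members and 0% of all tested genes were called, and S100a8 was the 1 member with an unadjusted p below 0.05. The interaction, taken as the change in the heart minus that in blood, was 2.23 for S100a8 (SE 0.99, limma adjusted p = 0.63), 2.24 for S100a9 (SE 1.06), 1.42 for S100a6 (SE 0.66), 1.53 for S100a11 (SE 0.74) and 1.499 for S100a10 (SE 0.81). It was 0.21 for S100a1 (SE 1.08) and -0.81 for S100a13 (SE 0.55). edgeR, DESeq2 and limma-voom called 0 members here too. Of all 11549 tested genes, edgeR and limma-voom called 0, and DESeq2 called 18 higher and 2 lower.

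Genes that encode partners of S100 proteins were followed from a list of 18, of which 17 were tested. Between MI and Blood, 5 were higher and 4 lower in MI, beside 21.2% and 13.5% of all tested genes. The partners of S100A1 in cardiomyocytes were among the higher ones. Ryr2, the ryanodine receptor, averaged 590 ± 345 in MI and 1.62 ± 2.30 in Blood (log2 fold change 7.27, SE 0.67, limma adjusted p = 3.9e-05), and Atp2a2, which encodes SERCA2a, 2119 ± 914 and 138 ± 24.9 (3.82, SE 0.51). Pln, the inhibitor of that pump, was at 436 to 2051 normalized counts in MI and had 0 reads in both Blood libraries. Ryr2, Atp2a2 and Pln are also on the list of 12 cardiomyocyte markers above, which were all higher in MI than in Blood, and in MI + MSC than in Blood + MSC. Their differences are thus not separate from those of the markers. S100a1 itself was not called.
The cargoes of S100A13 were higher in MI as well, Il1a by a log2 fold change of 3.97 (SE 0.64, limma adjusted p = 0.0013) and Fgf1 by 2.85 (SE 0.62, limma adjusted p = 0.0060). Anxa1, the annexin partner of S100A11, was lower (219 ± 104 in MI and 2634 ± 2176 in Blood, log2 fold change -3.42, SE 0.58, limma adjusted p = 0.0017). Between MI + MSC and Blood + MSC, 4 partners were higher and 4 lower, beside 8.23% and 5.85% of all tested genes. Il1a averaged 383 ± 156 in MI + MSC and 8.005 ± 1.29 in Blood + MSC (log2 fold change 5.17, SE 0.64), and Ryr2 (4.77, SE 0.67) and Atp2a2 (2.17, SE 0.51) were higher. Pln was at 172 to 529 normalized counts in MI + MSC and at 1 and 4 reads in Blood + MSC. Anxa2, the partner of S100A10, averaged 252 ± 13.8 against 1458 ± 286 (-2.51, SE 0.48, limma adjusted p = 0.0068), and Anxa1 was lower by a log2 fold change of -2.36 (SE 0.58, limma adjusted p = 0.022). Anxa2 was called lower in MI than in Blood as well (log2 fold change -2.25, SE 0.48, limma adjusted p = 0.0055). With limma, 0 of the 17 were called between MI + MSC and MI, between Blood + MSC and Blood, or in the interaction.

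Of 14 genes for receptors and signalling of S100 proteins, 5 were lower and 0 higher in MI than in Blood (13.5% and 21.2% of all tested genes), with a median log2 fold change of -0.76. They were Fpr1, a formyl peptide receptor (-3.16, SE 0.73), Cd33, a sialic acid-binding receptor (-2.49, SE 0.64), the integrin chains Itgb2 (-1.64, SE 0.33) and Itgam (-0.99, SE 0.35), and the adaptor Myd88 (-1.30, SE 0.30), with limma adjusted p between 0.0038 and 0.046. The 2 receptors best known for calprotectin were named after their values were seen. Tlr4 averaged 342 ± 216 in MI and 666 ± 118 in Blood (log2 fold change -1.27, SE 0.59, limma adjusted p = 0.114). Ager, which encodes RAGE, had 1 to 4 reads in each cardiac library, 2 reads in Blood 21, which is under the detection limit, and 73 reads in Blood 22. Its normalized counts were 0.961 to 16.8 in MI and 14.1 and 47.4 in Blood (log2 fold change -2.21, SE 0.83, limma adjusted p = 0.059). Between MI + MSC and Blood + MSC, Cd69 (2.61, SE 0.63) and Cd68 (1.85, SE 0.48) were higher and Itgb2 lower (-1.61, SE 0.33), with limma adjusted p between 0.0088 and 0.027, beside 8.23% of all tested genes higher and 5.85% lower. Cd68 is also on the list of 12 macrophage markers above, of which 3 were called higher and 0 lower in this comparison. In the comparisons of MSC with no MSC and in the interaction, limma called 0 of the 14.

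Of 10 transcription factors known to act on S100 genes or in myeloid cells, 9 were tested, and 5 were lower in MI than in Blood, beside 13.5% of all tested genes. These were Cebpd (204 ± 111 in MI and 951 ± 234 in Blood, log2 fold change -2.40, SE 0.58) and Cebpe (6.46 ± 5.60 and 29.1 ± 1.15, -2.26, SE 0.71) of the C/EBP family, the ETS factor Spi1 (439 ± 252 and 1613 ± 242, -2.10, SE 0.53), Klf5 (-1.87, SE 0.66) and Irf7 (-1.53, SE 0.40), with limma adjusted p between 0.0100 and 0.047. Also of the C/EBP family, and named after their values were seen, Cebpb (-0.50, SE 0.53, limma adjusted p = 0.490) and Cebpa (0.48, SE 0.49, limma adjusted p = 0.464) were not called. In the other 3 comparisons and the interaction, limma called 0 of the 9. The letters that C/EBP and ETS factors recognise are shown in the promoters above, and no binding was measured.

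**Figure D4:**
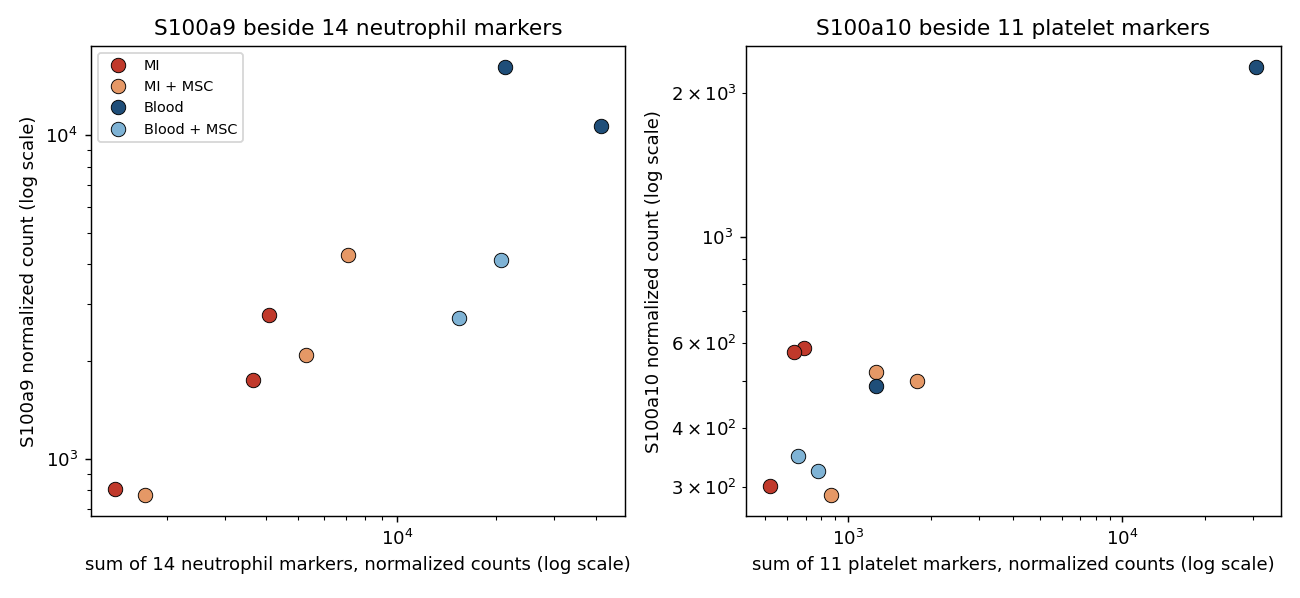
Each point is 1 library on log axes. The left panel plots S100a9 against the sum of 14 neutrophil markers, and the right panel S100a10 against the sum of 11 platelet markers. Cardiac libraries lie lowest on the neutrophil axis (1387 to 7074), the 4 blood libraries lie at 15418 to 41462, and Blood 21 lies alone at the upper right of the platelet panel.

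Of the 9 other S100 genes on the list, 6 were rows of the tables and 1, S100a16, passed the filter. S100a16 had 14.4 to 58.8 normalized counts in MI (7 to 41 reads), 4.73 to 20.7 in MI + MSC (7 to 19 reads) and 1.84 to 7.07 in the blood libraries (1 to 14 reads). It was higher in MI than in Blood (log2 fold change 2.14, SE 0.73, limma adjusted p = 0.041), unlike the called members. S100a3 had 1 to 6 reads in each library, S100a7l2 0 to 5 and S100b 0 to 5. S100a7a had 0 to 16 reads and S100a14 0 to 3.

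The genes with the pattern most like each member were found by Pearson's correlation of log2(normalized count + 2) over the 10 libraries, given as a description, since the libraries share the split of heart and blood and differ in depth. S100a8 and S100a9 were each other's closest gene among the 11549 tested (r = 0.998), followed for both by Stfa2l1 and Trem3 (r = 0.969 to 0.976). S100a6 was closest to Cept1 (0.987), S100a11 (0.985) and Prr13 (0.985), and S100a11 to 4930523C07Rik (0.994), Cib2 (0.992) and Alox5ap (0.992). S100a10 was closest to Parvb (0.972), Dusp23 (0.967) and Gas2l1 (0.966), and S100a1 to Clu (0.969), Tspan17 (0.958) and Rtl8c (0.943). For both members Blood 21 stood far above the other libraries (2268 and 155 normalized counts), and the correlations were not computed without it. S100a1 and S100a10 had r = 0.775 over the 10 libraries and 0.209 over the 6 cardiac ones. For S100a13 the closest genes were Tlcd3b (0.954), Vps16 (0.921) and Hbb-bs, a globin chain (0.913).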

How the data were processed

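RNA of Ly6G+ cells, after removal of ribosomal RNA, was sequenced with strand in read pairs. Per the study's methods and the submitters' processing notes, the authors trimmed reads with Trimmomatic, removed duplicates with Picard, mapped with STAR to GRCm39, counted them by gene with featureCounts in stranded mode, dropped mitochondrial reads and scaled the rest in DESeq2. What they deposited is a signal, the authors' read count of a gene over the size factor of its library, and both deposited tables were equal in all 281850 values. Dividing by the value of 1 read gave whole reads (tolerance 0.1 reads).

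Groups were taken from the labels. limma (3.58.1) with an intensity trend was fitted to all 10 libraries on log2(value + 2), with 1 mean per group, for genes with a mean of at least 10. edgeR (4.0.16), DESeq2 (1.42.0) and limma-voom were run on the recovered reads as alternatives, beside pseudocounts of 1 and 5, a minimum mean of 20 or none, TMM and library-size scaling, and each library, or MI 13 and Blood 21 together, left out. The code was tested on simulated reads. The S100a8 to S100a9 ratio was compared by a two-sided exact permutation test in scipy (1.17.1). Fits ran in R 4.3.3. Tables and figures were made in Python 3.11.15 using pandas 2.3.3, numpy 2.4.6 and, for plots, matplotlib 3.10.9.

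Reads per library ranged from 148594 to 8602711, and 3 reads, the floor used, are 25.2 normalized counts in MI 13 and 0.505 in Blood + MSC 24. Gene positions and transcript lengths came from GENCODE on GRCm39, and promoters from RefSeq. Named were the 8 members, those of the 9 other listed S100 genes that the tables held, up to 6 called genes with the largest fold change from each of 3 lists of partners, receptors and factors per comparison, the 3 genes most like each member, and markers of 10 cell types. The members and lists were chosen with earlier results of these data known.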

Additional observations from a re-analysis of the deposited data

How the results depend on the processing

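Relative to the main result, TMM scaling moved the median log2 fold change of all tested genes by 0.26 in MI + MSC versus MI, 0.61 in Blood + MSC versus Blood, -0.21 in MI versus Blood and -0.59 in MI + MSC versus Blood + MSC, and library-size scaling by -0.12, 0.26, 0.49 and 0.09. Fits to all 11549 tested genes, with no library left out, called 813 (library-size scaling) to 2060 (edgeR with TMM) lower in MI than Blood. In MI versus Blood, S100a6, S100a8 and S100a11 were called under all 22 alternatives, and S100a9 under all but those without Blood 21 (log2 fold change -2.76, and -2.27 without MI 13 and Blood 21 together). Leaving out Blood 21 or Blood 22 left 1 library in Blood, and the calls then changed as given above. With 1 cardiac library left out, the number of members called in MI versus Blood was 4. All genes called lower then numbered 1244 of 11682 (without MI + MSC 15) to 1417 of 11451 (without MI + MSC 17). In Blood + MSC versus Blood the number of members called was 1 with DESeq2 on all libraries and 2 with DESeq2 on the groups compared. It was 0 with 1 cardiac library left out. Without Blood 22, which left 1 library in Blood, the log2 fold change was -2.67 for S100a1 and -2.75 for S100a10. In MI + MSC versus Blood + MSC the number of members called was 1 with TMM scaling, where 809 of all 11549 genes were called lower. It was also 1 with edgeR in either form and with limma-voom, beside the counts of all genes given above. With DESeq2 on all and on the compared groups it was 2 and 3 (1296 and 2182 genes called lower). With 1 cardiac library left out it was 0 to 3, beside 245 of 11570 genes called lower (without MI + MSC 18) to 1159 of 10951 (without MI 13). In the interaction it was 0 to 1 with 1 library left out, S100a10 without Blood 22, where 247 genes were called higher and 839 lower. The ratio of S100a8 to S100a9 differed between heart and blood by -0.10 to -0.04 on the log2 scale under all 13 alternatives, with exact permutation p between 0.095 and 0.571.

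Of 763 fold changes of members under an alternative, 697 kept their direction and their side of the thresholds, 30 newly passed them, 2 (of S100a9, above) no longer did, and 34, in 11 of 35 results, had the other sign, none of them called in the main result. In MI + MSC versus MI, the value for S100a6 was -0.032 with edgeR and TMM, -0.024 with edgeR and the deposited size factors, -0.052 with DESeq2 on all libraries and -0.036 with limma-voom. Without MI 13 and Blood 21 it was -0.34 for S100a6, -0.070 for S100a8, -0.21 for S100a9 and -0.20 for S100a11, and with 1 library left out the values ran from -0.34 to 0.54, -0.21 to 0.96, -0.31 to 0.92 and -0.20 to 0.74. S100a10 was at 0.14 under TMM scaling and from -0.45 to 0.13 with 1 library left out (0.13 without MI + MSC 17, 0.02 without MI 19). S100a1 in Blood + MSC versus Blood was at 0.60 without MI 13 and Blood 21, and from -2.67 to 0.60 with 1 library left out. S100a1 in MI versus Blood was at 0.039 with library-size scaling, 0.30 with limma-voom, 1.06 without MI 13 and Blood 21 and -2.08 to 1.19 with 1 library left out, S100a10 at 0.25 without both, and S100a13 at 0.093 with library-size scaling. In MI + MSC versus Blood + MSC, S100a10 was at -0.28 under TMM scaling. The interaction for S100a1 was -0.16 with TMM scaling, -0.19 with library-size scaling, -0.64 with limma-voom, -1.30 without MI 13 and Blood 21 and -1.42 to 1.85 with 1 library left out. The cause of these turns was not tested. No paired analysis was possible because the labels link no heart library to a blood library of the same mouse. Per the study's methods, blood was drawn from the heart before that organ was taken. Heart and blood libraries may thus come from the same mice, while the fits treated all libraries as independent. Depth limits S100a1, S100a4 and S100a13, which had at most 22 reads in MI 13 and Blood 21. S100a6 and S100a11 also rested on few reads in MI 13 (21 and 12). Without that library, their log2 fold changes in MI versus Blood were -2.02 and -1.97.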
